A study of Homo sapiens with 16 samples.

Results

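EFS, EPHX2 and MYBPC1 are 3 genes of the 33121 entries in the count table, picked by symbol because their RNA was far higher in one of the knockout lines of the series, called here the second knockout. Each symbol matched 1 entry, and all 3 were among the 15569 genes that passed the expression filter. The series measured poly-A RNA in 16 libraries of HAP1, an adherent, near-haploid human line derived from a leukaemia line. There were 4 libraries in each of 4 groups: cells with a deletion of SLC30A10, which encodes a manganese exporter, their unedited controls, cells of the second knockout, which carry a deletion of another gene, and the unedited controls of that experiment. All cells were grown in IMDM with fetal bovine serum, penicillin and streptomycin, with no other treatment in the labels. Each deletion has 1 cell line identifier and both control sets share another, so a knockout is represented by 1 line. The effect of a deletion cannot be told apart from other differences between that line and its controls. The labels do not say that the 4 libraries of a group came from separate cultures, and p-values then measure only the spread between these libraries, which may be technical.

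The members belong to unrelated pathways. EFS is a scaffold of the Cas family, whose members carry an SH3 domain, are phosphorylated by Src-family kinases and link adhesion kinases to Crk adaptors. EPHX2 encodes soluble epoxide hydrolase, which turns the epoxides that cytochrome P450 enzymes make from arachidonic acid into diols, and it is abundant in liver. MYBPC1 encodes slow skeletal myosin-binding protein C, a component of the thick filament of the sarcomere that is known mainly from skeletal muscle.

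EFS lies on the minus strand at chr14:23356406-23365172 and MYBPC1 on the plus strand at chr12:101594971-101695841 (RefSeq, GRCh38.p14). Promoter windows of 300 bases, from 250 before the RefSeq start to 50 after it, were found for 2 of the 3 members. They are shown because both genes were far higher in the second knockout, while their start regions differ in base composition. Both run 5′ to 3′ on the strand of the gene, and capitals mark matches to the motifs searched. The EFS window covers chr14:23365123-23365422 and that of MYBPC1 chr12:101594721-101595020.
EFS: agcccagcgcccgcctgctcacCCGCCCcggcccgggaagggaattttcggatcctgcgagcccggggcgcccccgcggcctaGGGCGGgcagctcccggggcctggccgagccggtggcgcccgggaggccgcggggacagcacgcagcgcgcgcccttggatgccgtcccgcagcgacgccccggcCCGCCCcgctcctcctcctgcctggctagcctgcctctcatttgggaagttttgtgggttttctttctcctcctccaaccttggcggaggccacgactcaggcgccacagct
MYBPC1: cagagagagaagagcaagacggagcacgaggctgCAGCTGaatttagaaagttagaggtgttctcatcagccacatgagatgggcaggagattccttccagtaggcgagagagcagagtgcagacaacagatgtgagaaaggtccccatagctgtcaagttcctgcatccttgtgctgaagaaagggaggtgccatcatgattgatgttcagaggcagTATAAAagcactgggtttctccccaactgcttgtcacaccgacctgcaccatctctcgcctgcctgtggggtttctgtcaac

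The EFS window was rich in G and C, at 73.7%, with 33 CpG dinucleotides and an observed over expected CpG ratio of 0.82. The MYBPC1 window held 51.3% G and C, 5 CpG dinucleotides and a ratio of 0.256. Over 35114 RefSeq windows the medians were 58.7%, 14 CpG and 0.579. On both strands, EFS held 3 matches to the GC box GGGCGG, which was found in 45% of all windows. MYBPC1 held TATAAA, the TATA box, starting 32 bases before the start and found in 11.5% of windows, and the E-box CAGCTG, starting 216 bases before it and found in 17.9%. Neither window matched CCAAT (34.6% of windows), CATTCC (14%) or TGACGT (7.98%). These matches describe the letters only. GENCODE places the first base of both genes further upstream and outside these windows, at 101568353 for MYBPC1 and 23365752 for EFS, so other starts than these are annotated.

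The libraries were even in size, from 16058856 to 16648151 counts, so that 3 counts equalled 0.180 to 0.187 CPM, the count scaled to the library's total. SLC30A10 itself held 3 to 11 counts in its knockout and 6 to 9 in its control, and its RNA did not separate the groups (exact permutation test, two-sided, p = 0.686; the design can reach 0.0286). ABL1 and BCR, the genes of the fusion that HAP1 carries, summed to 32.4 to 44.9 CPM over the libraries, although counts per gene cannot show the fusion. None of 7 blood and 4 T cell markers passed the expression filter, and the T cell markers CD3E and CD3D were at 0 in all 16 libraries.

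EFS was the highest of the 3 in the second knockout. Its counts in the 4 second control libraries were 59, 58, 62 and 62, and in the second knockout 739, 863, 1052 and 959. The SLC30A10 control libraries held 75, 63, 52 and 59 counts and the SLC30A10 knockout 8, 17, 11 and 15. The control sets overlapped, every library of the second knockout lay above them, and every library of the SLC30A10 knockout lay below them. In CPM the means were 3.66 ± 0.116 (SD, n = 4) in the second control, 55.2 ± 7.50 in the second knockout, 3.79 ± 0.585 in the SLC30A10 control and 0.791 ± 0.252 in the SLC30A10 knockout. The rise in the second knockout, which was the reason for choosing the gene and is given with no test, was 3.91 ± 0.11 on the log2 scale (SE), or 15.1-fold. Of all tested genes, 13.7% were called in that contrast, 6.67% upward, 7.03% downward and 0.957% upward by 2-fold or more, and the libraries of 16.3% did not overlap, 7.60% upward. Nothing about the members is read from these shares, since the contrast chose them.

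The SLC30A10 knockout took no part in that choice and was therefore tested. EFS fell there by 2.25 ± 0.22 on the log2 scale (SE), a 4.76-fold decrease (adjusted p 6.13e-09, edgeR quasi-likelihood test, Benjamini-Hochberg over all tested genes). All 4 knockout libraries were lower than all 4 controls, and the two-sided exact permutation p was 0.0286, the smallest possible. The libraries of 38.3% of all tested genes did not overlap in this contrast, 18.6% downward. For comparison, 41.4% of all tested genes were called in this contrast, 21.2% upward and 20.2% downward, with 2.20% downward by 2-fold or more. Between the unedited control sets, 39.3% of all tested genes were called. In bulk RNA, fewer cells with a transcript and less of it per cell cannot be told apart.

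EPHX2, on the plus strand at chr8:27491143-27548626, showed the same order of groups at a lower level. It held 18, 13, 20 and 16 counts in the second control and 225, 161, 179 and 171 in the second knockout. Counts were 15, 16, 18 and 19 in the SLC30A10 control and 6, 6, 10 and 7 in the SLC30A10 knockout. Library 1 of the second knockout was the highest for EPHX2 and the lowest for EFS, so the genes did not vary together among these 4 libraries. Mean levels were 1.02 ± 0.180 CPM (SD, n = 4) in the second control, 11.3 ± 1.88 in the second knockout, 1.04 ± 0.112 in the SLC30A10 control and 0.449 ± 0.114 in the SLC30A10 knockout. The rise used for the choice was 3.46 ± 0.16 (log2, SE), or 11-fold. In the SLC30A10 knockout, EPHX2 fell by 1.19 ± 0.30 on the log2 scale (SE), and its adjusted p was 0.00200 (edgeR quasi-likelihood). The libraries did not overlap (two-sided exact permutation p = 0.0286, the smallest possible), which held for 38.3% of all tested genes in this contrast and, downward, for 18.6%.

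MYBPC1 shared the rise but not a called fall. Its counts were 75, 61, 76 and 75 in the second control and 630, 589, 576 and 566 in the second knockout. The SLC30A10 control held 57, 46, 31 and 52 counts and the SLC30A10 knockout 36, 37, 29 and 36, so that control library 3 lay inside the range of the knockout. Levels averaged 4.36 ± 0.439 CPM (SD, n = 4) in the second control, 36.1 ± 2.23 in the second knockout, 2.83 ± 0.686 in the SLC30A10 control and 2.14 ± 0.242 in the SLC30A10 knockout. The rise used for the choice was 3.05 ± 0.10 (log2, SE), or 8.28-fold. Its log2 fold change in the SLC30A10 knockout was -0.40 ± 0.17 (SE; adjusted p 0.0576, edgeR quasi-likelihood), which missed the threshold of 0.05. Without SLC30A10 control library 3 it was -0.56 and passed (adjusted p 0.00585, edgeR quasi-likelihood), and leaving out the other libraries of that contrast in turn gave -0.44 to -0.29, none of them past the threshold. The exact permutation p for the CPM was 0.114 (two-sided).

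**Figure D1:**
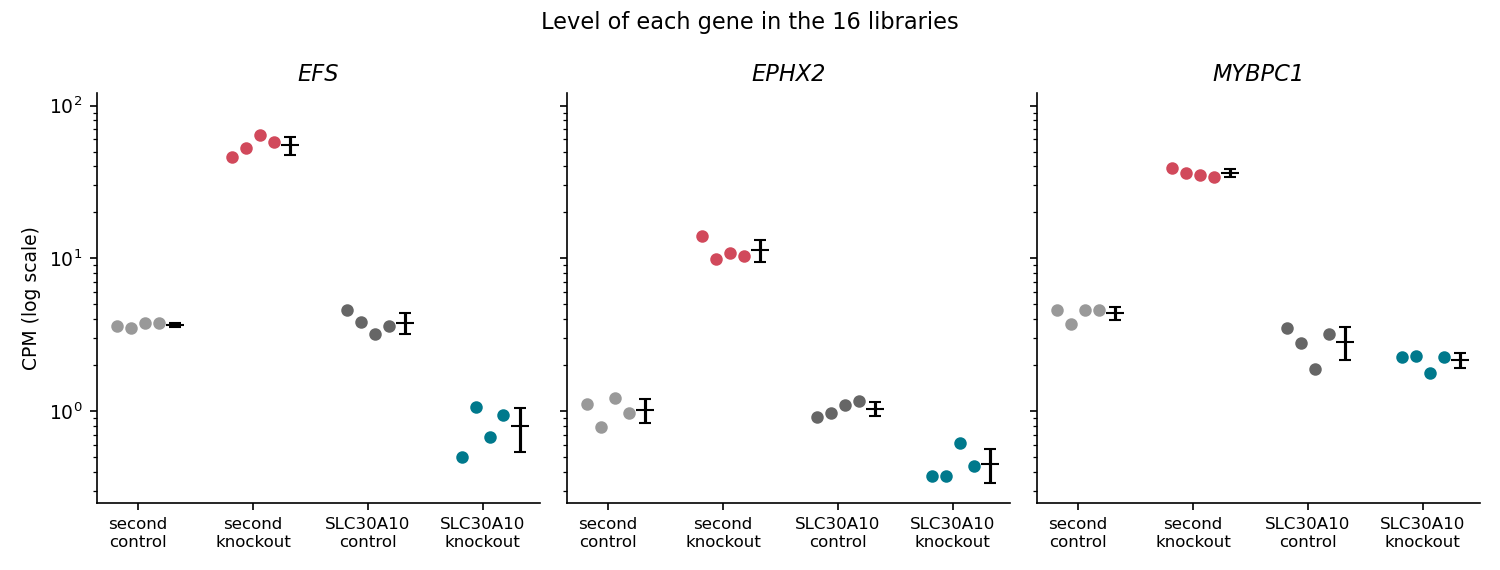
Level in CPM on a log axis for EFS, EPHX2 and MYBPC1 in the 16 libraries, 1 coloured point per library, with the group mean and SD (n = 4) in black beside the points. The second knockout stands above all other groups for each gene, and EFS and EPHX2 are lowest in the SLC30A10 knockout, where the 4 libraries lie below all 8 controls.

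The control sets bear on how firm these levels are. The SLC30A10 control minus the second control was 0.05 ± 0.16 for EFS and 0.03 ± 0.24 for EPHX2 on the log2 scale (SE), and their libraries overlapped. For MYBPC1 it was -0.62 ± 0.15, a 1.54-fold difference, and the control libraries did not overlap, as for 36.3% of all tested genes. These differences are given with no test because the second control took part in the choice of members.

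Levels of different genes were compared per kilobase of merged GENCODE exons, 3.24 kb for EFS, 4.47 kb for EPHX2 and 7.38 kb for MYBPC1. In the second knockout the order was EFS, with 17.0 ± 2.32 CPM per kb (SD, n = 4), MYBPC1, with 4.89 ± 0.302, and EPHX2, with 2.52 ± 0.420, and no libraries overlapped. The second control kept this order at 1.13 ± 0.0359, 0.590 ± 0.0594 and 0.227 ± 0.0402 CPM per kb. In the SLC30A10 knockout EFS, at 0.244 ± 0.0779 CPM per kb, and MYBPC1, at 0.290 ± 0.0328, overlapped, with EPHX2 lowest at 0.100 ± 0.0254. Merged exons overstate the length of any single transcript, so these levels are rough.

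The second knockout had 609 genes that passed upward without overlap of libraries and averaged 5 CPM or more over its 8 libraries. Ranked by fold change, the members came 2, 3 and 4. ITIH2, a subunit of inter-alpha-trypsin inhibitor, stood just above them at 8.55 ± 0.23 (log2, SE), and FAM127C just below at 2.74 ± 0.16. TMEM132E, SLC19A3, a thiamine transporter, and CLDN1, a tight junction protein, followed with 2.52 ± 0.13, 2.08 ± 0.14 and 1.88 ± 0.12. The SLC30A10 knockout did not enter this ranking, and there ITIH2 fell by 2.25 ± 0.63 on the log2 scale (SE; adjusted p 0.00522, edgeR quasi-likelihood). ITIH2 passed the expression filter only through the second knockout, at 1514 to 1572 counts, so this p is not read as support. Its libraries in the SLC30A10 experiment overlapped, with 2 to 29 counts in the control and 1 to 6 in the knockout. FAM127C, whose near-identical copies can share reads, rose there by 3.33 ± 0.13, TMEM132E by 3.30 ± 0.12, SLC19A3 by 2.34 ± 0.13 and CLDN1 by 1.65 ± 0.10, where the largest adjusted p of the 4 was 8.77e-13 (edgeR quasi-likelihood). All 8 of these genes averaged under 5 CPM in the second control, from 0.243 CPM for ITIH2 to 4.36 CPM for MYBPC1, and so met the limit through the second knockout.

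**Figure D2:**
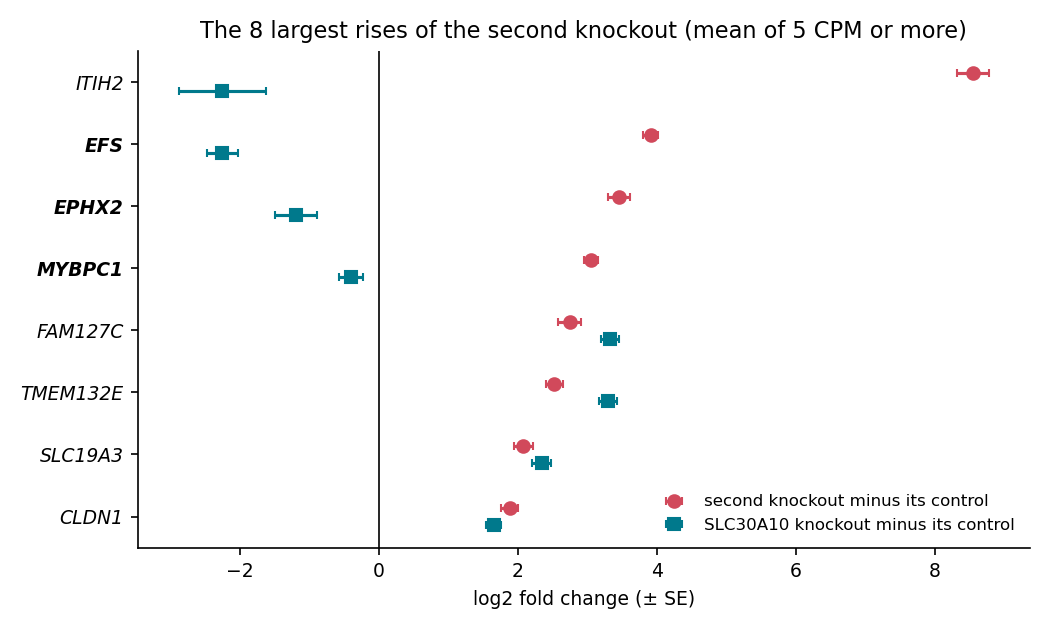
Log2 fold change with its SE for the 8 genes with the largest rise in the second knockout among those averaging 5 CPM or more over its 8 libraries, for the second knockout (circles) and the SLC30A10 knockout (squares), each against its own control. Values of the second knockout chose the genes, and in the SLC30A10 knockout they run from -2.25 to 3.33, with MYBPC1, at -0.40, not past the threshold.

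Other genes that were higher in the second knockout went either way in the SLC30A10 knockout. Apart from the members, 146 genes were called at least 2-fold higher in the second knockout. Of these, 30 (20.5%) were called lower by 2-fold or more in the SLC30A10 knockout and 35 (24.0%) higher by that much, against 2.20% and 2.31% of all tested genes. Of the 34 such genes with a rise of 4-fold or more, 6 were called lower by 2-fold or more and 14 higher. With a mean count of at least 50 required, 11 of 57 were lower by 2-fold and 17 higher. Against the control set of the other experiment, 50 of 290 were lower and 32 higher. The shares of all tested genes above belong to the fit as reported, and none is given here for these other settings.

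The genes closest on the chromosome were examined next, 5 tested genes on each side of each member. Of the 30 neighbours, 6 were called in the second knockout (20%), 4 higher and 2 lower, against 13.7% of all tested genes. In the SLC30A10 knockout, 11 were called (36.7%), 5 higher and 6 lower, against 41.4%. The median log2 fold change of the neighbours was -0.04 in the second knockout and 0.01 in the SLC30A10 knockout, beside -0.00244 and -0.00479 over all tested genes. In the second knockout the neighbours ranged from -0.37 to 1.12, below the rise of each member. That gap was fixed by choosing the members for this rise, so nothing is read from it.

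SLC22A17, an organic cation transporter family member that also serves as a receptor for lipocalin, begins 3.52 kb downstream of the end of EFS on the same strand. It held 348, 353, 351 and 345 counts in the second control and 507, 571, 561 and 488 in the second knockout. Its level rose by 0.62 ± 0.07 on the log2 scale (SE; adjusted p 1.18e-07, edgeR quasi-likelihood), with no overlap. Where EFS fell, in the SLC30A10 experiment, SLC22A17 held 277, 279, 248 and 292 counts in the control and 288, 238, 279 and 296 in the knockout, with a log2 fold change of 0.03 ± 0.08 (adjusted p 0.770 by the same test).

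CHPT1, which makes phosphatidylcholine, begins 1.80 kb downstream of MYBPC1, also on the same strand, and was singled out after its values were seen. It held 1627, 1628, 1604 and 1527 counts in the second control and 2068, 1983, 1818 and 2020 in the second knockout. This was a rise of 0.32 ± 0.05 on the log2 scale (SE; adjusted p 9.29e-06, edgeR quasi-likelihood), and the log2 fold change in the SLC30A10 knockout was 0.06 ± 0.05. CLU, which encodes the chaperone clusterin and was likewise chosen after its values were seen, lies 48.3 kb downstream of EPHX2 on the opposite strand. CLU fell by 0.35 ± 0.07 in the second knockout and by 0.41 ± 0.07 in the SLC30A10 knockout (log2, SE; adjusted p 0.000570 and 1.36e-05, edgeR quasi-likelihood). Against the control set of the other experiment its value in the SLC30A10 knockout turned to 0.071.

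ADRA1A, an alpha-adrenergic receptor 624 kb from EPHX2, moved as EPHX2 did. Its counts were 46, 45, 33 and 39 in the second control and 90, 98, 43 and 122 in the second knockout, where library 3 overlapped the controls. Counts in the SLC30A10 control were 37, 57, 44 and 58 and in the knockout 22, 14, 25 and 13. It rose by 1.12 ± 0.22 in the second knockout and fell by 1.37 ± 0.29 in the SLC30A10 knockout (log2, SE; adjusted p 0.000685 and 0.000410, edgeR quasi-likelihood). PTK2B and TRIM35, which lie between ADRA1A and EPHX2, passed in neither. Near EFS, HOMEZ fell by 0.53 ± 0.09 and ZFHX2 by 0.50 ± 0.12 in the SLC30A10 knockout, and for ZFHX2 the value turned to 0.22 against the control set of the other experiment.

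**Figure D3:**
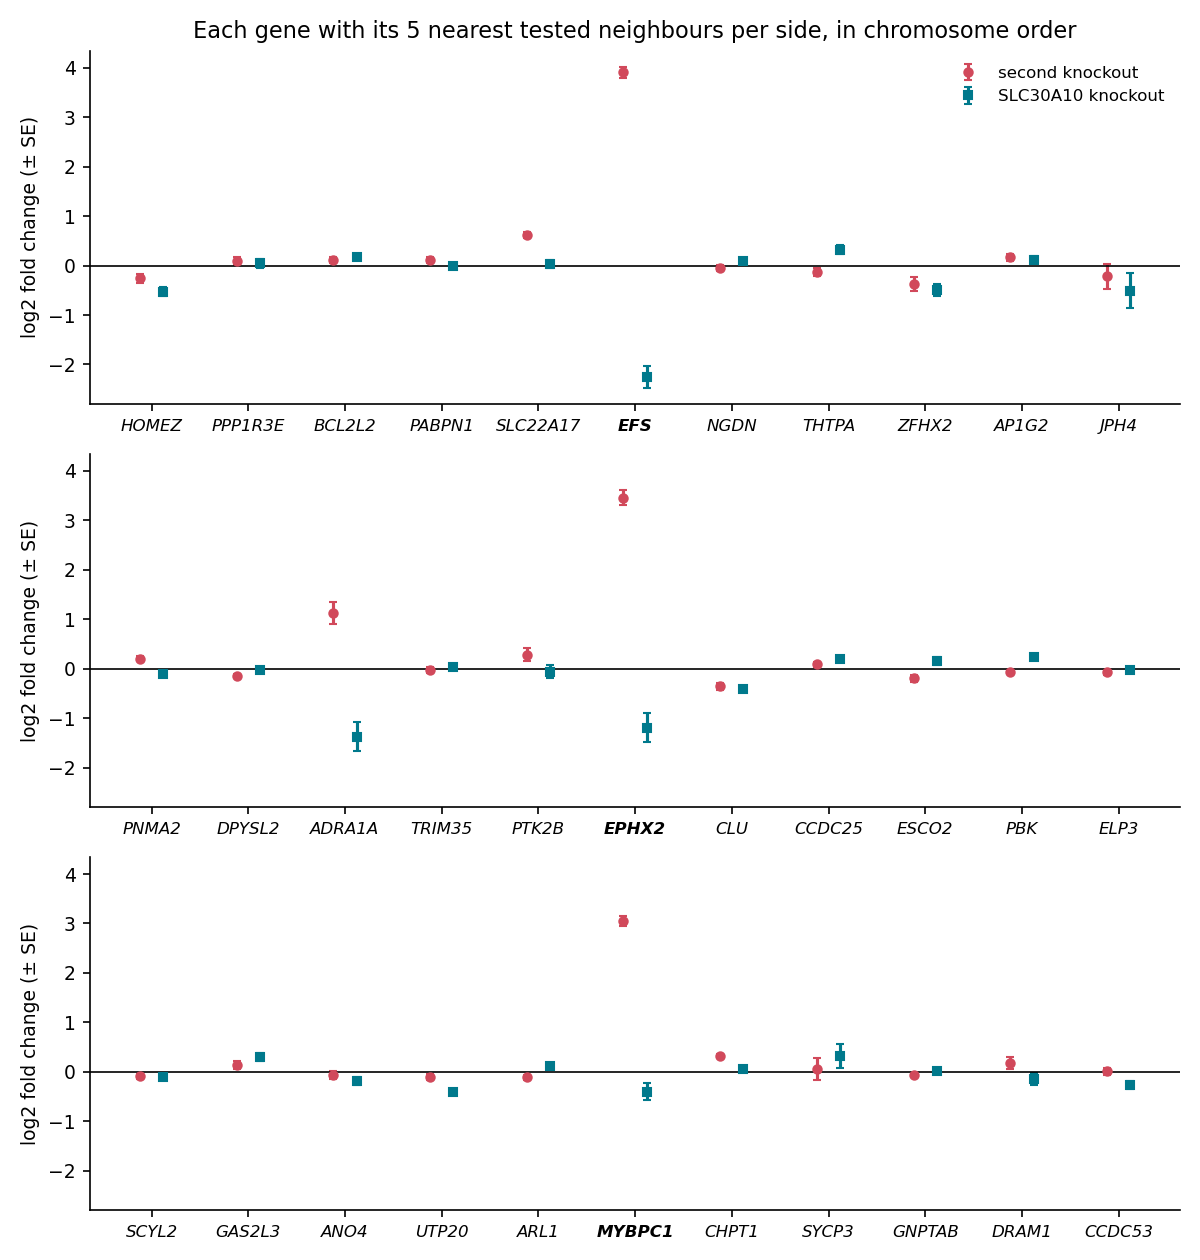
Log2 fold change with its SE in the second knockout (circles) and the SLC30A10 knockout (squares) for EFS, EPHX2 and MYBPC1, in bold, and their 5 nearest tested neighbours on each side, placed in chromosome order and not to scale. The members stand apart from their neighbours in the second knockout, which was fixed by choosing them for that rise. SLC22A17, ADRA1A and CHPT1 are also above 0 there.

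No called rise was found for the other Cas family members tested. NEDD9, an adhesion scaffold, had log2 fold changes of 0.14 ± 0.06 (SE) in the second knockout (adjusted p 0.133, edgeR quasi-likelihood) and fell by 0.28 ± 0.06 in the SLC30A10 knockout (adjusted p 0.000957). BCAR1, the founding member, had -0.11 ± 0.07 in the second knockout (adjusted p 0.328) and fell by 0.24 ± 0.07 in the SLC30A10 knockout (adjusted p 0.00412), a call that was lost against the control set of the other experiment. In the second control they stood at 11.5 ± 0.602 and 4.03 ± 0.286 CPM per kb (SD, n = 4), above the 1.13 of EFS. CASS4, at 1 to 9 counts in the 16 libraries, did not pass the expression filter.

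The wider list of Cas partners, kinases and Crk-pathway genes held 25 genes, of which 23 were tested. In the second knockout 2 were called higher and 3 lower (21.7%, against 13.7% of all tested genes), with a median log2 fold change of 0.02. The higher ones were FYN, a Src-family kinase, at 0.29 ± 0.09, and VCL, the adhesion protein vinculin, at 0.12 ± 0.04. YES1, another Src-family kinase, fell by 0.20 ± 0.04, SH2D3A by 0.40 ± 0.12 and the adaptor CRK, named after its values were seen, by 0.15 ± 0.05 (log2, SE). This count was unstable, at 1 without second control library 3 or second knockout library 2 or 4, and 2 without second control library 1 or 4. The SLC30A10 knockout had 3 called higher and 5 lower (34.8%, against 41.4%), with a median of 0.02. DOCK1, a Rac activator, fell by 0.21 ± 0.05 and TLN1, talin, by 0.14 ± 0.04. PTPN12, a phosphatase of Cas proteins, rose by 0.20 ± 0.05, but turned to -0.017 against the control set of the other experiment.

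For EPHX2, the microsomal EPHX1 had 37.5 ± 0.584 CPM (SD, n = 4) in the second control and 37.4 ± 2.86 in the second knockout, a log2 fold change of 0.000179 ± 0.06 (SE; adjusted p 0.998, edgeR quasi-likelihood). In the SLC30A10 knockout its value was 0.00992 ± 0.06 (adjusted p 0.914). EPHX4, at 6 to 21 counts, had 0.12 ± 0.30 and 0.39 ± 0.25 and passed in neither, and EPHX3, at 1 to 6 counts, was not tested. Per kilobase, EPHX1 in the second control, at 14.9 ± 0.233 CPM per kb, lay far above EPHX2, at 0.227.

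Genes of arachidonic acid release, its conversion and the lipid receptors formed a list of 35, with 19 tested. In the second knockout 6 were called higher and 2 lower (42.1%, against 13.7% of all tested genes), with a median log2 fold change of 0.19. PTGS2, the inducible cyclooxygenase, rose by 1.57 ± 0.31 and CYP4F22, a fatty acid hydroxylase, by 0.94 ± 0.20 (log2, SE). PLA2G4A, which releases arachidonic acid, rose by 0.36 ± 0.06, and PPARG, a nuclear receptor for fatty acid derivatives, by 0.39 ± 0.08. The largest adjusted p of these 4 was 0.00162 (edgeR quasi-likelihood). PTGS2 was scarce, with 8, 13, 7 and 10 counts in the second control and 42, 35, 16 and 20 in the second knockout.

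In the SLC30A10 knockout, 9 of the 19 were called higher and 4 lower (68.4%, against 41.4%), with a median of 0.23. PLA2G4A fell there by 0.76 ± 0.07, from 60.8 CPM in the control to 35.8, and its adjusted p was 3.55e-10 (edgeR quasi-likelihood). PTGS2 fell by 1.46 ± 0.36, from 11, 24, 24 and 20 counts to 8, 6, 7 and 7. LTA4H, PTGES2 and CYP2S1, enzymes of leukotriene, prostaglandin and fatty acid metabolism, rose by 0.23 ± 0.04, 0.30 ± 0.05 and 0.37 ± 0.07. LTC4S, named after its values were seen, was the 1 called gene with a rise above 2-fold, at 1.15 ± 0.34. PLA2G4A and PTGS2 thus rose in the second knockout and fell in the SLC30A10 knockout, as EPHX2 did, while CYP4F22 and PPARG were higher in both. PTGES, named after its values were seen, was also called in both, with a rise of 0.55 ± 0.13 and a fall of 0.53 ± 0.15 (log2, SE). The 2 genes called lower in the second knockout ran the other way. CYP2S1 fell there by 0.31 ± 0.07, and PPARA, a nuclear receptor for fatty acids named after its values were seen, fell by 0.26 ± 0.06 and rose by 0.35 ± 0.06 in the SLC30A10 knockout (log2, SE). Against the control set of the other experiment, the calls of PLA2G4A and PTGS2 in the second knockout were lost, at 0.02 and 0.52, and LTA4H in the SLC30A10 knockout turned to -0.083.

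The muscle genes nearest to MYBPC1 in sequence were scarce. Its paralogs MYBPC3, the cardiac form, and MYBPH had 0 counts in all 16 libraries, which allows up to 0.187 CPM in a library. MYBPC2, the fast skeletal form, held 3 to 13 counts, and its log2 fold changes of 0.28 ± 0.43 and 0.35 ± 0.40 (SE) passed in neither knockout. Of 7 skeletal muscle markers only MYH3 was tested. The muscle regulators MYOD1 and MYOG had at most 1 count in a library, and DES, CKM and ACTA1 at most 3. The 7 summed to 1.77 to 2.77 CPM in the second control and 1.51 to 2.73 CPM in the second knockout.

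Of 46 sarcomere genes 17 were tested. In the second knockout 2 were called higher and 3 lower (29.4%, against 13.7% of all tested genes), with a median log2 fold change of -0.04. TNNT1, slow skeletal troponin T, fell by 0.64 ± 0.07, MYOM1, an M-band protein, by 0.51 ± 0.11 and TPM3 by 0.16 ± 0.04, while TPM2 rose by 0.36 ± 0.07 (log2, SE). In the SLC30A10 knockout, 5 were higher and 7 lower (70.6%, against 41.4%), with a median of -0.11. TNNI3, cardiac troponin I, rose there by 2.21 ± 0.21, from 0.989 ± 0.419 to 4.60 ± 0.865 CPM (SD, n = 4), and TNNT1 rose by 0.92 ± 0.07. MYOM1 fell by 1.07 ± 0.12 and TPM2 by 0.78 ± 0.07. The largest adjusted p of these 4 was 2.87e-08 (edgeR quasi-likelihood). In the second knockout, TPM2 turned to -0.10 and the call of TNNT1 was lost, at -0.14, against the control set of the other experiment.

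**Figure D4:**
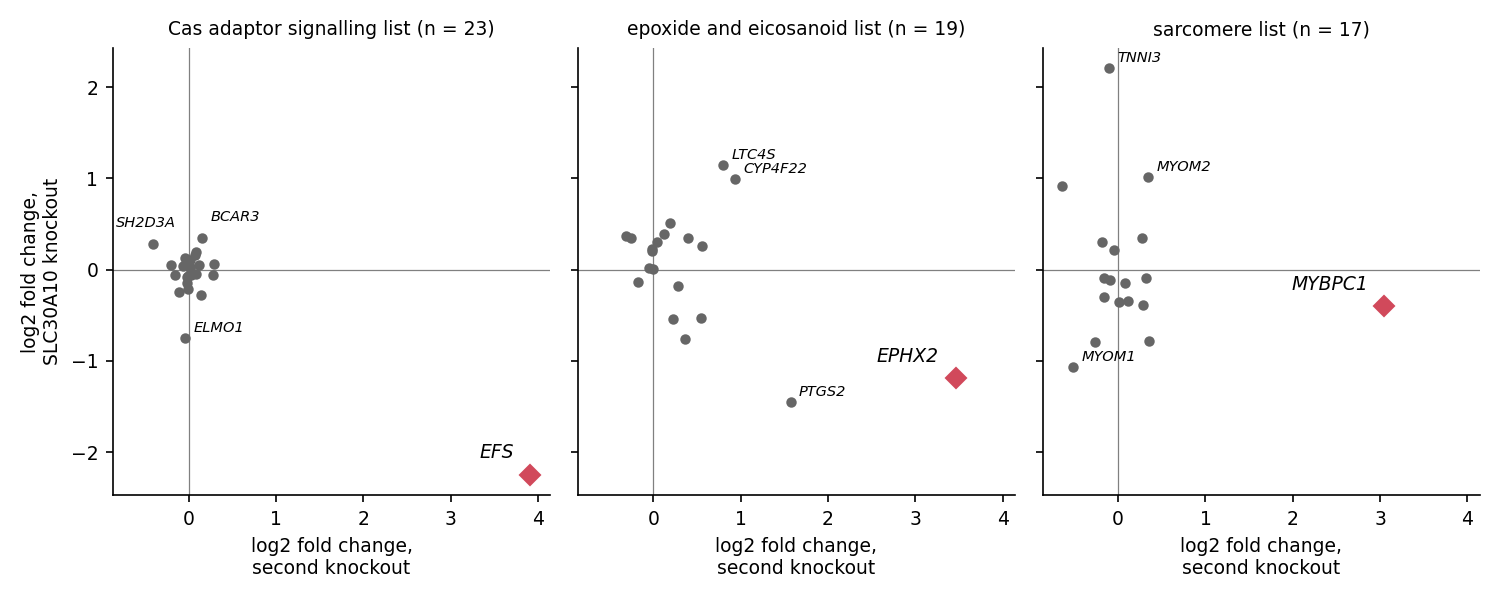
Log2 fold change in the second knockout against that in the SLC30A10 knockout for the tested genes of the Cas adaptor list (n = 23), the epoxide and eicosanoid list (n = 19) and the sarcomere list (n = 17), with EFS, EPHX2 and MYBPC1 as diamonds. The 3 listed genes with the largest change in either knockout are labelled in each panel. Each member lies to the right of its list, beyond the 1.57 of PTGS2. That position was fixed by choosing the members for this rise, so nothing is read from it.

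The genes whose pattern was most like that of a member were found by Pearson's r of log2 CPM over the 16 libraries, among the 12027 genes that averaged 5 CPM or more in some group. These correlations describe the libraries, which fall into 4 groups, and carry no test. The libraries include the second knockout, whose rise chose all 3 members, so a high r among them was fixed by that choice. It was 0.973 for EFS and EPHX2, 0.971 for EPHX2 and MYBPC1 and 0.954 for EFS and MYBPC1. Closest to EFS were GLB1L3 (r = 0.979), EPHX2, PCDHB3, a clustered protocadherin (0.968), PGM5 (0.967) and FGF19, a growth factor (0.964). FGF19 had means of 4.19 CPM in the second control, 15.2 in the second knockout, 2.77 in the SLC30A10 control and 0.899 in the SLC30A10 knockout, the same order at its ends as EFS. Genes picked for a high r share the pattern through that pick, so nothing is read from the levels given for them.

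EPHX2 was closest to TAF3 (r = 0.980), TRIM32 (0.974), EFS, MYBPC1 and KIN (0.971). TAF3 stood at 25.3 CPM in the second control, 70.8 in the second knockout, 27.1 in the SLC30A10 control and 23.0 in the SLC30A10 knockout. For MYBPC1 the closest were PTGIS (0.987), MVB12A (0.987), TRIM32 (0.974), ZEB1 (0.973) and EPHX2. PTGIS encodes prostacyclin synthase, an enzyme that the eicosanoid list left out. In the second knockout PTGIS rose by 5.73 ± 0.28 (log2, SE). It was picked for a likeness over libraries that include the second knockout, so nothing is read from this rise. It held 4, 1, 3 and 1 counts in the second control and 113, 145, 126 and 115 in the second knockout, with 3, 0, 0 and 1 in the SLC30A10 control and 1, 0, 0 and 0 in the SLC30A10 knockout. Outside the second knockout, no library held more than 4 counts of PTGIS, so it passed the expression filter only through that group.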

How the data were processed

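Poly-A RNA was sequenced as paired ends on a DNA nanoball platform. The authors deposited whole-number counts per gene symbol and a table of normalized signal, each of whose columns equals the deposited count column of its library times a constant, within 5.19e-06. The submitters' processing notes name HISAT2, featureCounts, DESeq2, hg38 and GRCh38, with no versions; annotation and use of strand are not given in the sources used here. Antisense genes overlap EFS and MYBPC1 in GENCODE and have no row of their own in the count table, so their reads may count for the members if strand was not used.

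Groups came from the genotype labels and replicate numbers from the titles. All 16 libraries were fitted together in edgeR 4.0.16 (R 4.3.3), with filterByExpr (minimum count 10, minimum total 15), TMM scaling, a mean per group and the quasi-likelihood F test. P-values were adjusted by Benjamini-Hochberg over 15569 genes, with a threshold of 0.05. RefSeq placed 91.0% of tested genes. SEs were derived from the F statistic. The fit was tested on simulated data. Every replicate pair differed by more than sampling noise (chi-square per degree of freedom 1.64 to 6.83).

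Alternatives were other scalings, DESeq2 1.42.0, other filters and thresholds, fewer libraries, a replicate block and other controls. The members and lists were chosen with earlier results of these data known. Besides members and paralogs, the genes named are 4 genes per list and knockout, by smallest adjusted p, neighbours with an absolute log2 fold change of at least 0.5, the 5 most similar genes per member and the 8 largest rises among genes averaging 5 CPM or more. CHPT1, CLU, CRK, LTC4S, PPARA and PTGES fall outside this rule, as do PTK2B and TRIM35. The gene deleted in the second knockout is not reported here.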

Additional observations from a re-analysis of the deposited data

Results flagged for a closer look

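EFS and EPHX2 moved in opposite directions in the knockouts. Every library of the second knockout lay above its controls and every library of the SLC30A10 knockout below its own. Over all tested genes, 7.6% and 18.6% did so in the respective contrasts. The SLC30A10 effect minus that of the second knockout was -6.16 for EFS and -4.65 for EPHX2 on the log2 scale, and this difference was not tested because the members were chosen for their rise in the second knockout.

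In 2 of its 4 groups 1 library of MYBPC1 stood apart from the other 3. Over the 12 groups checked for the 3 members, chance gives about 0.6 such groups, or 1 in 20. The gap to the nearest library took 0.964 of the range in the second control, for library 2 with 61 counts beside 75, 76 and 75. It took 0.881 in the SLC30A10 knockout, for library 3 with 29 counts beside 36, 37 and 36. Whether counting noise alone gives such gaps was not tested. Without both libraries, the log2 fold change of MYBPC1 was 2.98 in the second knockout and -0.33 in the SLC30A10 knockout.

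For 33 of the other named genes the difference of the knockout effects, SLC30A10 minus second, was tested (edgeR quasi-likelihood, Benjamini-Hochberg over all genes), and 16 passed, beside 31.3% of all tested genes. Many of the 33 were named for a small adjusted p in 1 knockout, so their count is not set against that share. Next to the members it was -2.50 for ADRA1A, -0.59 for SLC22A17 and -0.25 for CHPT1. Among Cas partners it was -0.42 for NEDD9, -0.21 for DOCK1, 0.69 for SH2D3A and 0.26 for YES1. Of eicosanoid genes, PTGS2 had -3.03, PLA2G4A -1.13, CYP2S1 0.68, PTGES2 0.26 and LTA4H 0.24. Sarcomere genes gave 2.32 for TNNI3, 1.56 for TNNT1, -1.14 for TPM2 and -0.56 for MYOM1. The control sets also differ, at 39.3% of all tested genes, and their part in these differences was not tested.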

How the results depend on the processing

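The falls of EFS and EPHX2 in the SLC30A10 knockout passed under each alternative run, at -2.27 to -2.19 and -1.38 to -1.17 (log2), and with any 1 library left out at -2.42 to -2.08 and -1.38 to -1.11. MYBPC1 there ranged from -0.56 (without SLC30A10 control library 3) to -0.29 with 1 library left out. It passed with both control sets pooled (-0.71) and against the control set of the other experiment (-1.02), which gave 3.36 and 3.67 in the second knockout. Replicate numbers did not pair the libraries (mean correlation of same-numbered deviations 0.0472 and -0.0318). With the replicate block MYBPC1 was -0.40 and passed (adjusted p 0.0409, edgeR quasi-likelihood), and the block moved no other member's call and no count by over 1.5 times.

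Pooled controls gave 15 of 30 neighbours and 11 of 23 Cas genes called in the second knockout, beside 5341 of all 15569 tested genes. The other control set gave 19 neighbours, 14 Cas and 9 of 17 sarcomere genes, beside 7445 of all tested genes. The Cas list in the second knockout had 3 calls with only the 8 libraries compared, 1 at an adjusted p under 0.01 and 1 to 6 with 1 library left out. Requiring 2-fold left, in the second knockout, 1 neighbour, 0 Cas, 1 eicosanoid and 0 sarcomere genes, and in the SLC30A10 knockout 1, 0, 2 and 3. Cas calls in the latter were 5 at an adjusted p under 0.01. With 10 neighbours on each side of each member, a larger set, 14 were called in the second knockout and 23 in the SLC30A10 knockout. With 3 on each side, a smaller set, 7 were called in the SLC30A10 knockout. These counts change with the size of the set, and over all tested genes 13.7% and 41.4% were called in the respective knockouts. All calls in the second knockout (2132) became 5341 with pooled controls, 7445 with the other control set, 1229 at an adjusted p under 0.01 and 358 at 2-fold, and 1570 to 2146 with 1 library left out. Those in the SLC30A10 knockout (6450) became 702 at 2-fold.

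Of 622 alternatives for the 33 named results that passed, 591 kept direction and call, 26 lost the call and 5 reversed, all against the other control set: TPM2 in the second knockout (-0.10) and, in the SLC30A10 knockout, CLU (0.071), LTA4H (-0.083), PTPN12 (-0.017) and ZFHX2 (0.22). The cause was not tested. EPHX2 held as few as 6 counts in a library, which limits its precision.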
